A study of Mus musculus with 7 samples.

Results

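The 10 genes described here copy the genome or feed that copying: the replicative helicase genes Mcm2, Mcm3, Mcm4, Mcm5, Mcm6 and Mcm7, the sliding clamp gene Pcna, and the nucleotide synthesis genes Rrm1, Rrm2 and Tyms. They were chosen by symbol from a table of 17209 genes, and all 10 were listed and passed the low-expression filter. Pcna was added because its mean moved opposite to other cell cycle genes in the same comparison of these libraries, so the differences between groups below are a description and no test is read for any of the 10. The libraries held RNA of muscularis macrophages, the resident macrophages among the smooth muscle and nerves of the gut wall, sorted as CX3CR1-GFP+ cells (GFP marking the fractalkine receptor gene) from peeled small intestinal muscle of C57BL6/J mice. The pMCAO group was 3 libraries (pMCAO 1 to pMCAO 3) from mice 24 h after pMCAO surgery, which the series title calls stroke. The control was 4 libraries (Sham 1 to Sham 4) taken 24 h after sham surgery, so both groups had been operated on. The labels used here give no age or sex and no copy number of the GFP allele, do not say whether a library is a single animal, and name a pool in the description of pMCAO 3, so the spread between libraries may be partly technical. A value after ± is the SD, over 3 libraries after pMCAO and 4 after sham surgery.

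Before a cell copies its DNA, the origin recognition complex with Cdc6 and Cdt1 loads the ring of Mcm2 to Mcm7 onto each origin, a step called licensing. Later kinases recruit Cdc45 and the GINS complex, the ring becomes the active helicase, and PCNA, a ring that slides on DNA, tethers the polymerases behind it. PCNA also serves DNA repair and chromatin assembly outside S phase, and the transcription of most of these genes is driven by E2F factors as cells leave G1. Tissue macrophages are mostly resting, renew themselves by occasional division, and hold nucleotides low through SAMHD1, an enzyme that breaks down deoxynucleotides.

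Start-site windows of 4 of the genes are shown because Mcm6 and Mcm2 had lower means after pMCAO with no overlap between groups, Mcm7 had similar means, and Pcna had the higher mean. Each runs from 250 bases before to 50 bases after the start, on the gene's own strand (minus for all 4), from RefSeq on GRCm38.p6. Capitals mark matches to TTTCCCGC, TTTCGCGC, TTTGCCGC or TTTGGCGC, the letters of the textbook E2F consensus, searched on both strands. The windows lie at chr1:128359656-128359955 (Mcm6), chr5:138171834-138172133 (the upstream of the 2 windows of Mcm7), chr6:88898731-88899030 (Mcm2) and chr2:132253131-132253430 (Pcna).
Mcm6: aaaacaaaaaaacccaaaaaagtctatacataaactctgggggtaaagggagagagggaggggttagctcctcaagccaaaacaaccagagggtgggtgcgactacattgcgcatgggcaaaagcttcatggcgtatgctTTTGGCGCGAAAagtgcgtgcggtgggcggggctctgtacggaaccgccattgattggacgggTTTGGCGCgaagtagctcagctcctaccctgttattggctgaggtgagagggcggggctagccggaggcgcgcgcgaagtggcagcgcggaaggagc
Mcm7: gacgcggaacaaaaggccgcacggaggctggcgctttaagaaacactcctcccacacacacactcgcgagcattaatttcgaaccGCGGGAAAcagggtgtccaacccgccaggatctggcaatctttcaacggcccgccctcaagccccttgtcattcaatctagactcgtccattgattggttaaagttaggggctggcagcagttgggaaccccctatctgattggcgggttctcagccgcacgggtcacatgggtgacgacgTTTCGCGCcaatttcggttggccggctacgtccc
Mcm2: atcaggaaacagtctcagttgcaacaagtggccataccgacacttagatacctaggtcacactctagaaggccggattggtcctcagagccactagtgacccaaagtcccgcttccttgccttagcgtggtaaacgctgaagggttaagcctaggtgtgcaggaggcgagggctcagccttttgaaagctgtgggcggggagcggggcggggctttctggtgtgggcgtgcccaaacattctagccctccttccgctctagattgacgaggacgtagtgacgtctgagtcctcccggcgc
Pcna: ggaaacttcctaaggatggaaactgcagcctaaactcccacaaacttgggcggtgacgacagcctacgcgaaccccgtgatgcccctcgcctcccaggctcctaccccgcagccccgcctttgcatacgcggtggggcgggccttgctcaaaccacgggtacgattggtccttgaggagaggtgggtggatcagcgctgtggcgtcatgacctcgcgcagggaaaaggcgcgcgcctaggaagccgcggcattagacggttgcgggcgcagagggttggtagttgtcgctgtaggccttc
Mcm6 held 3 matches, of which 2 overlap on opposite strands. Mcm7 held 2 in the window shown. Neither Mcm2 nor Pcna held any, which says only that these letters are absent from these windows. The promoter table had windows for 9 of the 10 genes (Mcm4 is named only). A match was present for Mcm3, Mcm5, Mcm6 and Mcm7. Of all 32851 windows in the table, 2.26% held one, counted per window and not per gene. Among genes with a window in the lists below, a match was present for 6 of 12 origin genes and 5 of 10 polymerase subunits. It was present for 7 of 17 clamp loaders and partners, 7 of 18 G1 to S regulators and 3 of 10 helicase activation genes. Of 17 mitosis genes 1 had a match, and of 13 other nucleotide enzymes and 14 p53 targets 0 did. Matches were thus not particular to the helicase genes. Of the 9 chosen genes with windows, Mcm3, Mcm5 and Mcm6 had matches and lower means after pMCAO. Mcm7 had matches and similar means in both groups. Mcm2, Rrm1, Rrm2 and Tyms had no match and lower means, and Pcna had no match and a higher mean. Mcm2 had the largest log2 difference of the 10 in size. Whether matches bear on these differences was not tested.

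Counts assigned to listed genes ran between 12685941 and 21680302 in pMCAO libraries and between 18873893 and 34432716 in Sham libraries. The members had 62 to 4630 reads per library, all above the 3 counts taken as the limit of detection. Levels are CPM (read counts scaled to library size) with TMM factors between libraries. Each log2 change is the pMCAO level over the Sham level in the edgeR fit of all 17209 genes. The sorted population carried its macrophage markers, with all 9 listed and summing to 11508 to 15914 CPM in pMCAO libraries and 15524 to 19495 CPM in Sham libraries. Of the 9, 8 had lower means after pMCAO, and the part of this difference in the results below was not tested. Cx3cr1, the gene used for the sort, was at 175 ± 43.3 CPM after pMCAO and 256 ± 37.5 CPM after sham surgery. Csf1r was at 1813 ± 172 CPM after pMCAO and 2316 ± 576 CPM after sham surgery. Adgre1 was at 1033 ± 243 CPM after pMCAO and 1326 ± 270.4 CPM after sham surgery. Ptprc was at 1995 ± 85.2 CPM after pMCAO and 2017 ± 368 CPM after sham surgery. All 7 fibroblast markers had higher means after pMCAO, summing to 104 to 532 CPM in pMCAO libraries and 52.9 to 163 CPM in Sham libraries. All 7 blood endothelial markers did so too, at 259 to 339 CPM in pMCAO libraries and 93.9 to 242 CPM in Sham libraries. Other sets went both ways, with sums that overlapped between groups. Means were lower for 5 of 6 smooth muscle, 3 of 4 B cell and 2 of 4 monocyte markers. They were higher for 3 of 3 markers of interstitial cells of Cajal, 3 of 5 of T cells and 2 of 3 listed of large peritoneal macrophages. The part of these cells in the results below was not tested. Mitochondrial ribosomal RNA took 8.26% to 12.6% of counts in pMCAO libraries and 2.42% to 5.82% in Sham libraries, and its part in the results below was not tested. In bulk RNA, fewer cycling cells and less of these transcripts per cell cannot be told apart.

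Of the 6 helicase genes, 5 had lower means after pMCAO (background 51.4% of all genes) and Mcm7 did not. Their median log2 change was -0.55, against -0.02 over all genes, and their summed level was 136, 141 and 122 CPM in pMCAO 1 to pMCAO 3, against 181, 199.6, 172 and 199 CPM in Sham 1 to Sham 4. Every pMCAO library thus held less helicase RNA in total than any Sham library. Without pMCAO 3, the median log2 change of the 6 genes was -0.36.

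Mcm2 encodes a subunit of the ring that also binds histones. Its level was 13.9, 7.11 and 10.2 CPM in pMCAO 1 to pMCAO 3, against 22.9, 24.7, 18.1 and 27.5 CPM in Sham 1 to Sham 4. All pMCAO libraries lay below all Sham libraries, with pMCAO 2 the lowest. The means were 10.4 ± 3.41 CPM after pMCAO (SD, n = 3) and 23.3 ± 3.96 CPM after sham surgery (SD, n = 4), a log2 change of -1.17 (SE 0.30). The gene (ENSMUSG00000002870) spans 88883474 to 88898780 on the minus strand of chromosome 6 of GRCm38.

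Mcm6, a subunit of the catalytic core of the ring, was at 28.3, 35.5 and 37.4 CPM in pMCAO 1 to pMCAO 3 and at 47.4, 47.8, 51.1 and 54.0 CPM in Sham 1 to Sham 4. The groups did not overlap, and the Sham libraries lay close together (coefficient of variation 6.18%). The log2 change was -0.57 (SE 0.20). Mcm6 (ENSMUSG00000026355) lies on chromosome 1 from 128331590 to 128359664.

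Mcm3, which pairs with Mcm5 in the ring, was at 34.1, 26.6 and 19.6 CPM in pMCAO libraries and at 30.4, 45.9, 30.4 and 48.2 CPM in Sham libraries. The groups overlapped, since pMCAO 1 lay above Sham 1 and Sham 3. The log2 change was -0.54 (SE 0.26), and -0.36 without pMCAO 3. Mcm4, another subunit of the catalytic core, was at 33.8, 35.8 and 37.0 CPM in pMCAO libraries, against 52.0, 53.5, 32.8 and 40.9 CPM in Sham libraries. Here Sham 3 lay below all pMCAO libraries, and the log2 change was -0.33 (SE 0.22).

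Mcm5, at the gate through which the ring opens, differed most among pMCAO libraries. It was at 9.40, 16.7 and 4.15 CPM in pMCAO 1 to pMCAO 3, against 11.5, 16.8, 19.9 and 15.7 CPM in Sham 1 to Sham 4. The library pMCAO 2 lay within the Sham range and pMCAO 3 far below it. The log2 change of -0.66 (SE 0.41) therefore rested on which library was kept: it was -1.24 without pMCAO 2 and -0.29 without pMCAO 3.

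Mcm7, the third subunit of the catalytic core, was at 16.3, 19.1 and 13.8 CPM in pMCAO libraries and at 17, 10.9, 19.5 and 12.9 CPM in Sham libraries. The pMCAO values lay inside the Sham range, and the log2 change was 0.12 (SE 0.30), with a sign that turned without Sham 2 (-0.01) and with no scaling factors. Its gene model on chromosome 5 (138164583 to 138172422, minus strand) shares 321 exon bases (7.25%) with the opposite-strand gene Ap4m1 at its start and 64 (1.45%) with Cops6 at its end. The sources used here do not give the strand setting of the counting, so reads from these ends are uncertain. Ap4m1 was at 20.7 ± 3.87 CPM after pMCAO (SD, n = 3) and 24.6 ± 6.89 CPM after sham surgery (SD, n = 4), and Cops6 at 27.9 ± 12.7 CPM after pMCAO and 40.2 ± 4.70 CPM after sham surgery. A processed pseudogene, Gm5487, matches 72.8% of the longest coding Mcm7 transcript at 97.7% identity and was not listed in the table.

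**Figure D1:**
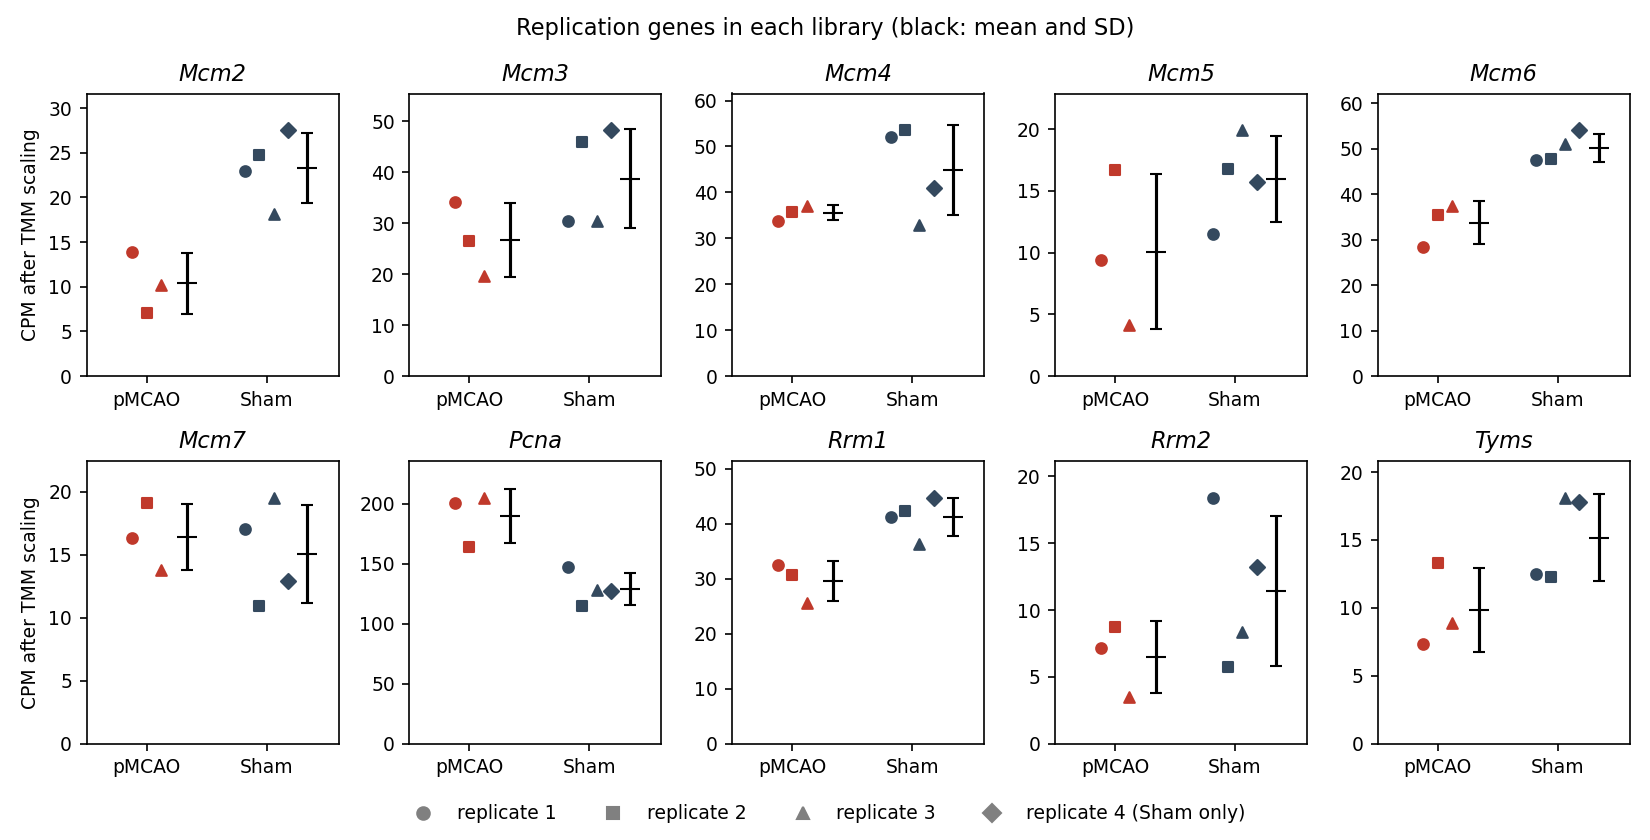
CPM after TMM scaling (y axis, from 0, its own scale per gene) for the 10 genes in pMCAO libraries (left of each panel, red) and Sham libraries (right, dark blue), with marker shape giving the replicate number and black bars the mean and SD. Pcna has its 3 pMCAO points above all Sham points, Mcm2, Mcm6 and Rrm1 have theirs below, and the other genes overlap.

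Pcna, the sliding clamp, had the higher mean after pMCAO, at 200.5, 164 and 205 CPM in pMCAO 1 to pMCAO 3, against 147, 115, 128 and 127 CPM in Sham 1 to Sham 4. The lowest pMCAO library lay above the highest Sham library. The means were 189.9 ± 22.7 CPM after pMCAO (SD, n = 3) and 129 ± 13.3 CPM after sham surgery (SD, n = 4), a ratio of 1.47 and a log2 change of 0.56 (SE 0.17). Leaving out any single library gave 0.50 to 0.66. The gene (ENSMUSG00000027342) lies on chromosome 2 from 132249162 to 132253314.

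Reads of Pcna could be split with a processed pseudogene, Pcna-ps2 on chromosome 19 (9283380 to 9284160), which matches 51.4% of the longest coding Pcna transcript at 99.2% identity and was listed. Pcna-ps2 was at 26.6, 31.5 and 19.2 CPM in pMCAO libraries and at 26, 26.1, 15.4 and 22.5 CPM in Sham libraries, and it took 8.54% to 16.1% of the sum of both in pMCAO libraries and 10.8% to 18.5% in Sham libraries. The sum of both was 227, 195 and 225 CPM in pMCAO libraries, against 173, 141, 143 and 149.7 CPM in Sham libraries. The groups did not overlap in the sum either, and its means had a ratio of 1.42.

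Because Pcna and the helicase genes had means on opposite sides, their ratio parted the groups further. Pcna divided by the summed helicase genes, in CPM, was 1.48, 1.16 and 1.68 in pMCAO 1 to pMCAO 3, against 0.811, 0.576, 0.745 and 0.638 in Sham 1 to Sham 4. No pMCAO library fell within the Sham range. The choice of Pcna for its opposite direction builds this contrast in, so it is a description.

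**Figure D2:**
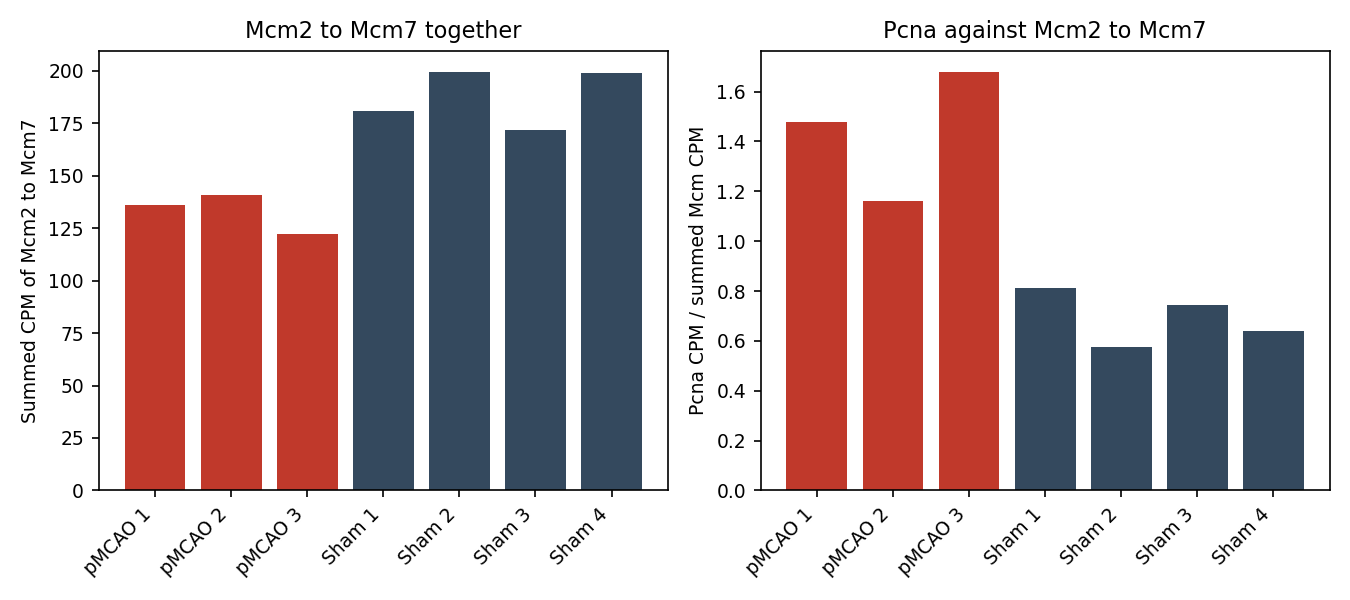
Left, the summed CPM of Mcm2 to Mcm7 in each library, and right, Pcna CPM divided by that sum, as bars from 0 with pMCAO in red and Sham in dark blue. The sums are 122 to 141 CPM in pMCAO libraries and 172 to 199.6 CPM in Sham libraries, and the ratio is 1.16 to 1.68 in pMCAO libraries and 0.576 to 0.811 in Sham libraries.

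The nucleotide genes all had lower means after pMCAO. Rrm1, the large subunit of ribonucleotide reductase, was at 32.5, 30.6 and 25.5 CPM in pMCAO libraries and at 41.3, 42.3, 36.4 and 44.7 CPM in Sham libraries, with no overlap. The log2 change was -0.48 (SE 0.21). Rrm2, the small subunit that rises in S phase, was at 7.18, 8.76 and 3.48 CPM in pMCAO libraries and at 18.4, 5.72, 8.37 and 13.2 CPM in Sham libraries. It overlapped, since Sham 2 lay below 2 pMCAO libraries, and its log2 change of -0.82 (SE 0.46) was -0.49 without Sham 1 and -0.52 without pMCAO 3. Tyms, the thymidylate synthase, was at 7.35, 13.3 and 8.86 CPM in pMCAO libraries and at 12.5, 12.3, 18.1 and 17.8 CPM in Sham libraries, where pMCAO 2 lay above Sham 1 and Sham 2. Its log2 change was -0.62 (SE 0.33).

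By edgeR's quasi-likelihood test with Benjamini-Hochberg adjustment over all genes, 0 of the 10 passed, where 0.0988% of all genes did (17 genes, 0.0697% higher and 0.0291% lower after pMCAO). At an unadjusted p under 0.05, 3 members were lower and 1 higher, where 6.47% of all genes were lower and 6.97% higher (13.4% in all). DESeq2 called 1 member (Mcm2, lower) against 3.07% of the genes it tested, and limma-voom called 0 against 0.203%. The groups did not overlap with pMCAO lower for 3 members (background 6.58%) and with pMCAO higher for 1 (background 5.99%). The comparison was used to choose the genes, so nothing is read from these counts.

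When the fit also held a stromal score per library, the mean of fibroblast and endothelial marker levels, the log2 change of Pcna was 0.57 (SE 0.31) and that of Mcm2 -1.67 (SE 0.50). Under the same covariate Rrm2 turned to 0.22 (SE 0.72), Tyms was near 0 (-0.03, SE 0.47), Mcm5 was at -0.25 (SE 0.57), Mcm7 at 0.73 (SE 0.47), Mcm4 at -0.62 (SE 0.35) and Mcm3 at -0.84 (SE 0.42). The score itself was 0.81 to 1.85 in pMCAO libraries and -0.53 to 1.07 in Sham libraries on the log2 scale. In the authors' deposited table the log2 fold changes were 0.82 for Pcna, -1.08 for Mcm2, -1.51 for Mcm5, -0.89 for Mcm3, -0.59 for Mcm4, -0.53 for Mcm6, 0.45 for Mcm7, -0.58 for Rrm1, -0.59 for Tyms and -0.27 for Rrm2. In the authors' deposited table none of these had an adjusted p at or under 0.05, the smallest being that of Pcna (0.164). Which terms the authors' model held is not stated in these sources.

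**Figure D3:**
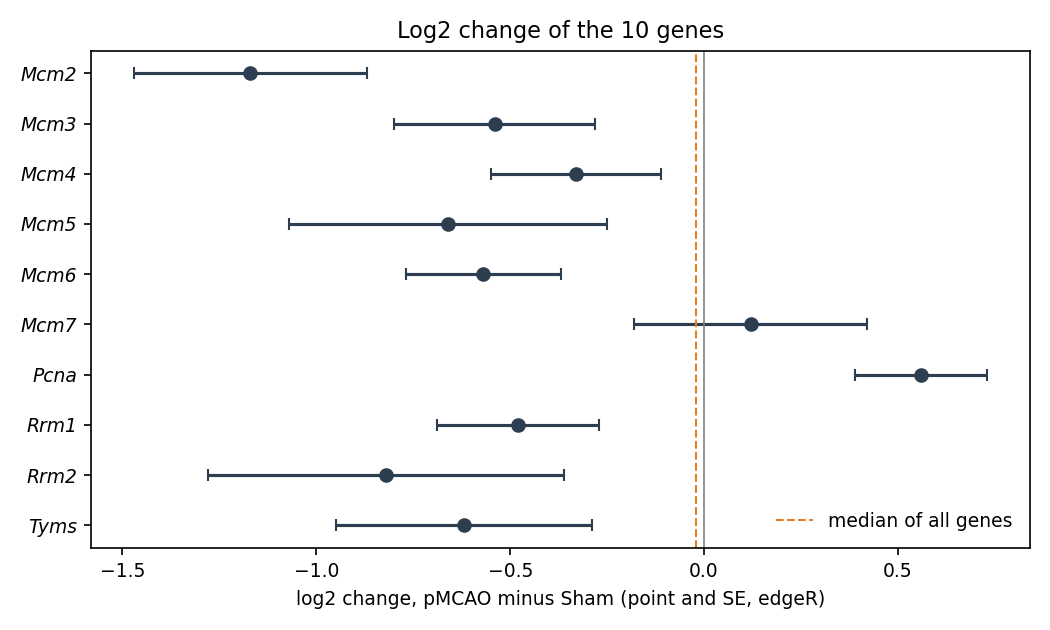
Log2 change of each of the 10 genes, pMCAO minus Sham, as points with the SE from edgeR. Pcna lies at 0.56 and Mcm7 at 0.12, the other 8 lie between -1.17 and -0.33, and the dashed line is the median of all genes (-0.02).

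Compared per kilobase of the longest coding transcript, Pcna stood far above the other members in both groups, at 125 ± 15.0 CPM per kilobase after pMCAO (SD, n = 3) and 85.0 ± 8.74 after sham surgery (SD, n = 4). In Sham libraries Mcm3 (12.8 ± 3.19), Mcm4 (12.5 ± 2.73) and Mcm6 (11.5 ± 0.711) followed, neighbours that lay within their spread. Rrm1 (10.3 ± 0.867) came next, below Mcm6 in all 4 Sham libraries. Below them came Mcm2 (6.91 ± 1.17), Rrm2 (5.21 ± 2.55), Mcm7 (5.10 ± 1.32), Tyms (4.79 ± 1.00) and Mcm5 (4.73 ± 1.02), of which the last 4 were within their spread. Mcm2 was not above these 4 in every Sham library. In Sham 3 Mcm2 (5.36) lay below Mcm7 (6.59), Mcm5 (5.88) and Tyms (5.71), and in Sham 1 Mcm2 (6.81) lay below Rrm2 (8.4). After pMCAO the order of the helicase genes by mean was Mcm4 (9.91 ± 0.446), Mcm3 (8.83 ± 2.40), Mcm6 (7.74 ± 1.10), Mcm7 (5.54 ± 0.882), Mcm2 (3.09 ± 1.01) and Mcm5 (2.98 ± 1.87). This order changed between libraries. Mcm3 (11.2) lay above Mcm4 (9.43) in pMCAO 1, Mcm5 (4.94) above Mcm2 (2.11) in pMCAO 2, and Mcm6 (8.59) above Mcm3 (6.46) in pMCAO 3. The proteins join the ring in equal numbers, while their RNA levels per length spanned several fold. Of the summed helicase level per kilobase, Mcm2 made up 5.22% to 10.4% in pMCAO libraries and 11% to 14.3% in Sham libraries, without overlap. Mcm7 made up 13.6% to 15.9% in pMCAO libraries and 6.43% to 13.5% in Sham libraries. These did not overlap either but nearly touched, at 13.6% in pMCAO 3 and 13.5% in Sham 3. The level of Mcm7 itself in pMCAO libraries lay inside the Sham range. The shares of Mcm3, Mcm4, Mcm5 and Mcm6 overlapped between the groups. Per kilobase of all annotated exons merged, Rrm1 was at 2.68 CPM in pMCAO libraries and 3.74 CPM in Sham libraries, below the Sham level of Rrm2 on that scale (4.12), so the order depends on the transcript model.

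Outside the members, 138 genes of replication, its control and mitosis were grouped into 8 lists, and 136 were measured. By edgeR 0 of the 136 passed over all genes and 31 had an unadjusted p under 0.05 (22.8%, against 13.4% of all genes), of which 27 were lower after pMCAO. With the stromal score as covariate, 9 of the 136 had an unadjusted p under 0.05, where 1014 of all 17209 genes did. DESeq2 called 10, all lower (Uhrf1, E2f1, Ccnd1, Ccnd2, Aen, Mki67, Ccnb1, Aurkb, Bub1 and Kif11), against 3.07% of the genes it tested, and limma-voom called 0, against 0.203%. Means were lower after pMCAO for 97 of the 136 (background 51.4% of all genes), with 21 not overlapping below (background 6.58%) and 4 above (background 5.99%). The same 51.4% is the background for the counts of lower means in each list below. The lists were chosen with earlier results of these data known, so these counts are a description and nothing is read from them.

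Genes that mark origins and load the helicase went both ways, with log2 changes of -0.95 to 0.47. Means were lower for 6 of 13 and higher for 7. Their median log2 change was 0.01, and it lay between -0.13 (without pMCAO 1) and 0.10 (without Sham 1 or without pMCAO 2) under the alternatives run, with 0 genes at an unadjusted p under 0.05 by edgeR and 0 called by DESeq2 or limma-voom. Orc1, the largest subunit of the origin recognition complex, was at 19.5 ± 4.10 CPM after pMCAO and 14.1 ± 3.19 CPM after sham surgery. Gmnn, which encodes geminin, the inhibitor of Cdt1, was at 6.06 ± 3.37 CPM after pMCAO and 11.2 ± 7.34 CPM after sham surgery. Mcm10, a factor that activates the loaded ring, was at 2.97 ± 2.36 CPM after pMCAO and 5.65 ± 1.93 CPM after sham surgery. The helicase relatives Mcm8 and Mcm9, which act in recombination repair, had log2 changes of 0.02 (SE 0.51) and 0.34 (SE 0.24).

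Of 16 genes that activate the helicase or guard the fork, 10 had lower means, with a median log2 change of -0.20, which was -0.04 without Sham 4 or without pMCAO 2, -0.12 without pMCAO 3 and -0.42 with the stromal score as covariate. Timeless, a fork protection factor, was at 2.44 ± 1.27 CPM after pMCAO (SD, n = 3) and 6.20 ± 0.629 CPM after sham surgery (SD, n = 4), without overlap (log2 change -1.35, SE 0.51). Clspn, the checkpoint mediator claspin, had a log2 change of -1.06 (SE 0.51) and Gins1, a GINS subunit, -0.70 (SE 0.43).

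Of 12 replicative polymerase subunits, 9 had lower means (median log2 change -0.40, and -0.15 with the stromal score as covariate). Pold2, a subunit of polymerase delta, which PCNA tethers, was at 5.25 ± 2.34 CPM after pMCAO and 11 ± 4.02 CPM after sham surgery. Pold1, the catalytic subunit of the same polymerase, had a log2 change of -0.70 (SE 0.38) and Pole, that of polymerase epsilon, -0.71 (SE 0.37).

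Most loaders and partners of the clamp had lower means after pMCAO, unlike Pcna. Of 18 measured, 15 had lower means, with a median log2 change of -0.22, which was -0.45 without pMCAO 1 and -0.42 with the stromal score as covariate. At an unadjusted p under 0.05 by edgeR, 5 of the 18 were lower (background 6.47%) and 0 higher (background 6.97%). Uhrf1, which guides maintenance methylation to new DNA, was at 1.62, 1.46 and 2.02 CPM in pMCAO 1 to pMCAO 3, against 7.13, 5.89, 7.31 and 11.3 CPM in Sham 1 to Sham 4. Its groups did not overlap, and its log2 change of -2.22 (SE 0.47) had an adjusted p of 0.0723 by edgeR. Rfc2, a subunit of the clamp loader, was at 23.9 ± 3.97 CPM after pMCAO and 38.6 ± 3.81 CPM after sham surgery, also without overlap. Cdkn1a, which encodes p21, an inhibitor that binds PCNA, was at 109 ± 26.2 CPM after pMCAO and 169.5 ± 43.4 CPM after sham surgery, with overlap.

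Among 15 other nucleotide enzymes, 11 had lower means, with a median log2 change of -0.25, which was -0.38 without pMCAO 1 and -0.16 without Sham 2. Dck, the deoxycytidine kinase of the salvage route, was at 55.9 ± 12.1 CPM after pMCAO and 86.2 ± 20 CPM after sham surgery, and Nme1, a nucleoside diphosphate kinase, at 14.1 ± 6.54 CPM after pMCAO and 26.3 ± 4.29 CPM after sham surgery. Rrm2b, the p53-inducible small subunit of ribonucleotide reductase used outside S phase, lay the other way from Rrm1 and Rrm2. It was at 60.9, 67.0 and 87.6 CPM in pMCAO libraries and at 57.4, 49.5, 53.8 and 42.5 CPM in Sham libraries, without overlap (log2 change 0.50, SE 0.20, adjusted p = 0.294 by edgeR). Samhd1 was at 473 ± 80.4 CPM after pMCAO and 497 ± 82.3 CPM after sham surgery.

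Of 25 regulators of the G1 to S step, 17 had lower means (median log2 change -0.17, -0.07 without Sham 4 and -0.08 without pMCAO 2). Ccnd1, the gene of cyclin D1, which opens the step, was at 65.2, 65.5 and 83.4 CPM in pMCAO libraries and at 127, 129.6, 114 and 122 CPM in Sham libraries. These groups lay well apart, and the log2 change was -0.79 (SE 0.17, adjusted p = 0.0898 by edgeR). Ccnd2, a second D cyclin, was at 97.4 ± 19.6 CPM after pMCAO and 160.0 ± 30.2 CPM after sham surgery. E2f1, an activator E2F, was at 5.76 ± 1.13 CPM after pMCAO and 14.1 ± 4.83 CPM after sham surgery, and neither gene overlapped between groups. Other members of the list lay the other way without overlap: Ccne2, the gene of the S phase cyclin E2, was at 29.0 ± 3.95 CPM after pMCAO and 17.4 ± 2.82 CPM after sham surgery (log2 change 0.74, SE 0.25, adjusted p = 0.222 by edgeR). Tfdp2, a partner of E2F factors, was at 37.8 ± 8.60 CPM after pMCAO and 28.3 ± 4.22 CPM after sham surgery.

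Pcna is also a target of p53, and 19 other p53 targets were split, with 8 higher and 11 lower means and a median log2 change of -0.22 (-0.04 without pMCAO 2 or with the stromal score as covariate, -0.33 without Sham 1, -0.14 without Sham 3 and -0.12 without Sham 4). Trp53inp1, which promotes p53 activity, was at 127 ± 45.3 CPM after pMCAO and 78.8 ± 13.7 CPM after sham surgery, and Bax, a promoter of apoptosis, at 23.1 ± 10.2 CPM after pMCAO and 39.8 ± 5.71 CPM after sham surgery. The nuclease gene Aen was at 2.54 ± 1.56 CPM after pMCAO and 10.5 ± 4.79 CPM after sham surgery, without overlap, with an adjusted p of 0.144 by edgeR.

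Mitosis genes had lower means for 19 of 20, with a median log2 change of -0.80. Leaving out a library gave medians between -1.02 (without pMCAO 2) and -0.60 (without Sham 4). With the stromal score as covariate the median was -0.55. Mki67, the proliferation marker Ki-67, was at 133, 162 and 172 CPM in pMCAO libraries and at 265, 217, 244 and 400.0 CPM in Sham libraries, without overlap, and had an adjusted p of 0.128 by edgeR. Kif11, a spindle motor, was at 11.4 ± 2.64 CPM after pMCAO and 27.6 ± 3.89 CPM after sham surgery (log2 change -1.27, SE 0.27).

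**Figure D4:**
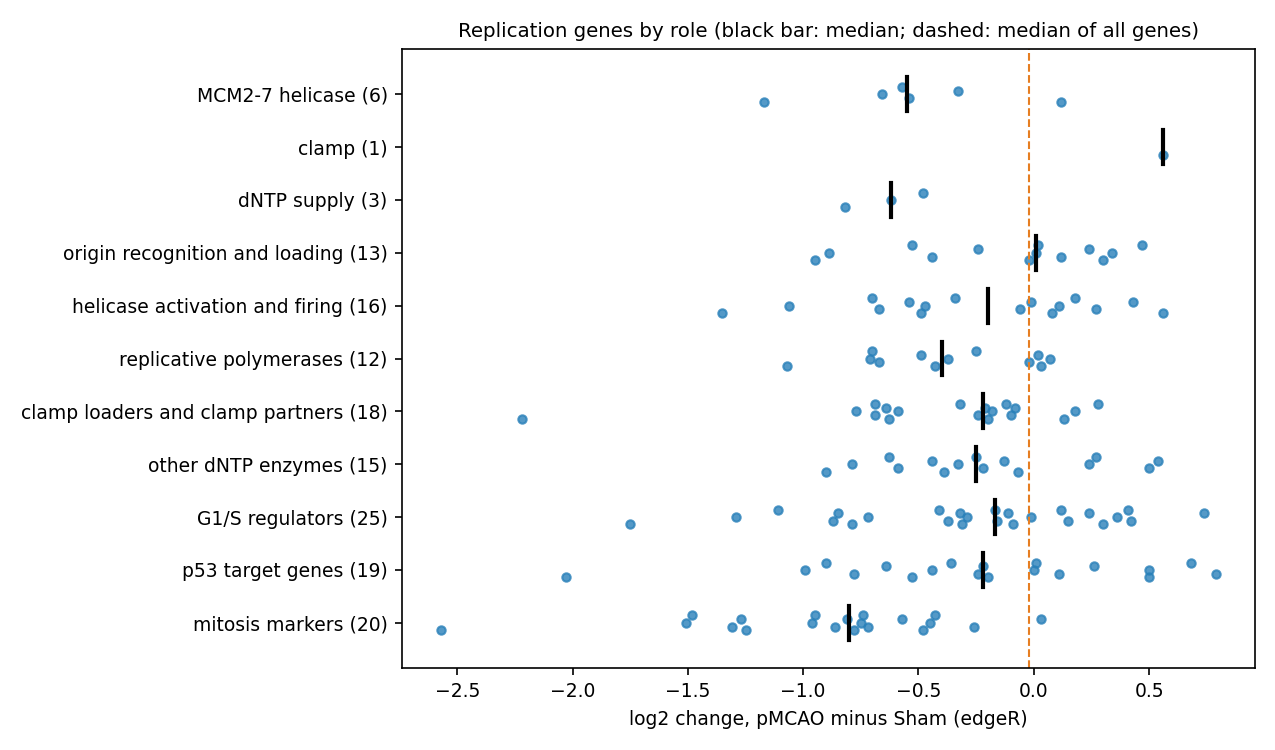
Log2 change, pMCAO minus Sham, of every measured gene by role (rows, number of genes in parentheses), with a black bar at the median of each row and a dashed line at the median of all genes (-0.02). The helicase genes and mitosis genes have medians of -0.55 and -0.80, origin genes 0.01, and Pcna is the point at 0.56.

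Beyond the lists, the genes whose log2 profile over the 7 libraries lay closest to the mean helicase profile were Aars, Parp1, Nudt16, Psmc3 and Ndrg3, out of 11578 genes with at least 5 CPM on average. Their root-mean-square differences were 0.0521 to 0.0862 log2 units, against a range of 0.87 in the helicase profile itself. Aars, the closest, was at 25.9 ± 4.78 CPM after pMCAO and 36.2 ± 1.24 CPM after sham surgery. Parp1, a sensor of DNA strand breaks, was at 58.3 ± 7.04 CPM after pMCAO and 82.8 ± 4.07 CPM after sham surgery. Closest to Pcna were Fcho2, Dennd4c, Spidr, Zfp40 and Hipk1, at 0.0499 to 0.0728 log2 units, against a range of 0.84 for Pcna. Fcho2, an endocytosis factor, was at 633 ± 59.5 CPM after pMCAO and 422 ± 40.0 CPM after sham surgery, and Spidr, a scaffold of recombination repair, at 63.7 ± 6.60 CPM after pMCAO and 43.0 ± 1.94 CPM after sham surgery. None of these 10 genes belongs to the replication lists. They were picked from 11578 genes for matching a profile over 7 libraries, so their group differences follow from the search. They are a description, and no shared role is read from them.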

How the data were processed

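Muscularis macrophages were profiled by RNA-seq from 2.0 ng of total RNA per library, with ribosomal RNA cleaved and paired 100 base reads, per the labels' protocols. The read counts per gene were deposited by the authors, who used STAR and featureCounts on GRCm38 (mm10) and limma per the submitters' processing notes; neither settings nor the annotation release is stated there. The deposited CPM values, the authors' log2 fold changes and their p-values stand in the same table. Counts were analysed with edgeR 4.0.16 (R 4.3.3): quasi-likelihood F test, robust dispersion, TMM factors, the edgeR filter by group (which kept all 17209 genes), group as the only term, two-sided, Benjamini-Hochberg threshold 0.05. The biological coefficient of variation was 43.6%. An SE is the log2 change divided by the square root of F. DESeq2 1.42.0 and limma 3.58.1 (voom) were alternatives, among 16 settings. The procedure was also run on simulated counts, where the planted log2 changes were larger in size than that of any member. That run does not show how well changes as small as those of the members are recovered. Log2 levels per library used a prior count of 0.5.

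The members, the gene lists and the naming rule were chosen with earlier results of these data known. The rule named all members, the 3 genes of smallest p in each list, the 5 closest profiles and check genes; Pcna-ps2, Ap4m1, Cops6, Mcm8, Mcm9, Ccne2, Tfdp2, Ccnb1 and Aurkb were added after their values were seen. Positions, transcript lengths and overlaps are from GENCODE M21 (GRCm38), where 99.5% of the table's identifiers were found. Close copies were found with blastn at 90% identity or more over at least 50% of a member's longest coding transcript. The labels name no molecular identifiers, so detection limits cover counting error only.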

Additional observations from a re-analysis of the deposited data

How the results depend on the processing

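Of 160 values (10 members under 16 settings), 155 moved by less than the spread between libraries. The exceptions were Mcm2 (-1.67), Mcm4 (-0.62), Mcm7 (0.73), Rrm2 (0.22) and Tyms (-0.03), each with the stromal marker score as covariate. The spread was each gene's own SD of log2 levels within groups. It was 0.69 for Mcm5 and 0.72 for Rrm2, near the size of their changes (-0.66 and -0.82). Mcm5 at -1.24 without pMCAO 2 and -0.29 without pMCAO 3 therefore counts among the 155. The count does not show that the values of such variable genes were stable. Also among the 155 are the values with no filter on low counts. These could not move, since the filter kept all 17209 genes. The count of genes called, 17 in all, was 476 with DESeq2, 35 with limma-voom, 29 without scaling factors (14 up, 15 down; all genes then had a median log2 change of -0.14), 76 over genes of at least 5 CPM, 33 after thinning and 0 with the stromal marker score (1014 at an unadjusted p under 0.05 by edgeR). Leaving out a library gave 0 to 100 genes. Omitting pMCAO 2 gave the most and omitting pMCAO 1 gave 0 (1987 by edgeR at an unadjusted p under 0.05); there were 7 when pMCAO 3 was dropped, 47 when either Sham 1 or Sham 2 was, and 9 when Sham 4 was. The causes were not tested. Of the 136 list genes, 0 were called by edgeR with all libraries and when any library was left out, 10 with DESeq2 and 1 over genes of at least 5 CPM.

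With the replicate number as a block, 21 genes passed and 0 list genes, and Pcna was at 0.55 and Mcm2 at -1.11. The numbers share no stated origin, so they were not used as pairs in the main fit. Same-numbered libraries had correlations of their deviations from the group means of -0.07, -0.01 and 0.09. With so few libraries these values cannot exclude that samples were handled in pairs. The lowest counts (62 for Rrm2, 74 for Mcm5, both in pMCAO 3) limit what can be said of those genes.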
